A study of Mus musculus with 36 samples.

Results

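The expression of 10 genes that build or shape the endocardial cushions and the cardiac jelly was followed through heart development. They are the hyaluronan synthase Has2, the link protein Hapln1, versican (Vcan), the hyaluronan receptor Cd44, the versican-cleaving protease Adamts1, periostin (Postn), and the transcription factors Twist1, Sox9, Msx1 and Msx2. The 10 genes were chosen by symbol from 20641 distinct symbols in the annotation, with earlier results of these data known. Every probe set carrying 1 of these symbols was taken, which gave 28 probe sets of 45101 on an Affymetrix whole-genome mouse array. The hearts came from OF1 mice, an outbred strain, at 12 stages. Embryonic hearts were taken daily, the earliest at E10.5 and the latest at E19.5, and adult hearts at 10 weeks of age (young) and at an older age (old), for which the labels give 14 months and the methods text 10 months. No animal carried a transgene or received a treatment, as far as the sources state. Each stage has 3 arrays, all of mixed sex at E10.5 and E11.5, and 1 female, 1 male and 1 mixed array from E12.5 on, so that spread between hearts of 1 stage cannot be told apart from sex. How many hearts a mixed array holds is not given. The p-values measure the spread between these arrays.

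The early heart tube is a layer of myocardium and a layer of endocardium separated by cardiac jelly, a gel of hyaluronan and versican held together by link protein. In the atrioventricular canal and outflow tract, endocardial cells leave their layer, change into mesenchyme and invade the jelly, forming cushions that are later remodelled into valves and septa. Twist1, Sox9 and the Msx factors are known from the cushion cells that transform, divide and invade, and Postn from the fibrous matrix of maturing valves and of cardiac fibroblasts. The arrays measured whole hearts, so fewer cushion cells and less RNA per cushion cell cannot be told apart.

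All values are log2 intensities as deposited, and a difference of 1 is a 2-fold change. Each gene was read from the probe set with its highest mean over the 36 arrays, and levels of different probe sets are not compared. Stage means were compared with limma, and p-values were adjusted by the Benjamini-Hochberg method over all probe sets. The strict limits were an adjusted p under 1e-05, an absolute log2 difference above 2, and, as the expression limit, some stage with a mean over 5. A gene passed them when at least 1 of its probe sets did. Of the 28 probe sets, 19 were above the expression limit at some stage, and Msx2 had none among them. The hybridization controls, transcripts added to each array's sample before hybridization, read 9.68 to 10.35 on the E10.5 arrays and 12.03 to 12.43 on the young adult arrays. The extraction note in the labels names liver, but 0 of 4 liver markers passed the expression limit, and 6 of 6 cardiomyocyte markers did.

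Hapln1, Vcan, Twist1 and Has2 were high in the earliest hearts and fell by many fold before birth. Against young adult hearts, these 4 of the 10 genes passed the strict limits at E10.5, all of them higher, where 4.43% of all probe sets were called higher. Of the 28 probe sets, 10 passed these limits, or 35.7%. At an adjusted p under 0.05, 7 of the 10 genes were higher and Msx1 was lower, against 27.1% higher and 35.9% lower of all probe sets. In either direction that is 8 of 10 genes beside a background of 63%. The median difference of the 10 genes was 1.35, and that of all probe sets was -0.19. Because the genes were chosen with earlier results known, these shares and medians are no test of them. With the hybridization controls as a covariate, the differences were 5.61 for Hapln1, 3.59 for Vcan, 2.65 for Has2 and 2.45 for Twist1, and Hapln1 and Vcan alone passed the strict limits. The strict count against young adult was 4 at E11.5 and E12.5, 3 at E13.5 and E14.5, and 1 at E15.5 and E16.5, with Vcan the last. The shares of all probe sets called higher at these stages fell from 3.56% at E11.5 to 3.36% at E12.5, 2.78% at E13.5, 2.65% at E14.5, 2.45% at E15.5 and 2.21% at E16.5.

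**Figure D1:**
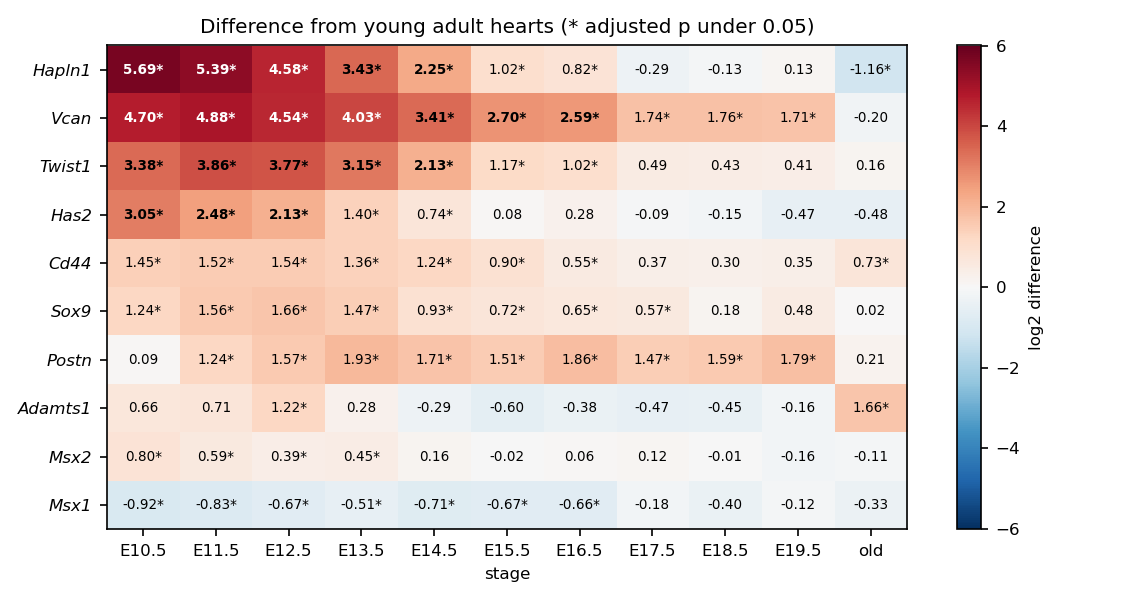
Log2 difference of each stage from young adult hearts for the probe set read for each gene (rows) at 11 stages (columns), as estimated with limma from 3 arrays per stage. Bold values passed the strict limits and an asterisk marks an adjusted p under 0.05. Hapln1 is 5.69 higher at E10.5 and 0.13 higher at E19.5, and Postn is between 1.24 and 1.93 from E11.5 to E19.5.

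Has2 (gene ID 15117, chr15:56665627-56694546 in GRCm38.p6) makes hyaluronan, the polymer of the jelly. Its 3 arrays at E10.5 read 7.97, 7.52 and 7.42, those at E12.5 read 6.80, 6.75 and 6.59, and those at E15.5 read 4.59, 4.64 and 4.75. The arrays at E15.5 lay below the expression limit, and so did every later stage mean, down to 4.12 at E19.5. The young adult arrays read 4.01, 5.35 and 4.38, the mixed array being the high one. The difference between E10.5 and young adult was 3.05 (SE 0.229, adjusted p = 9.2e-13), the groups did not overlap, and the young adult mean of 4.58 was under the limit. The other Has2 probe set gave 3.14 in the same comparison.

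Hapln1 (gene ID 12950, chr13:89540529-89611832) encodes the link protein that ties versican to hyaluronan, and its difference between E10.5 and young adult was the largest of the 10 genes. Its arrays read 9.43, 8.97 and 9.41 at E10.5, 8.32, 8.01 and 8.17 at E12.5, 5.84, 6.01 and 5.65 at E14.5, and 3.80, 3.85 and 3.51 at E19.5. No array of any of these stages overlapped with the next of them. The level at E10.5 exceeded that of young adults by 5.69 (SE 0.232, adjusted p = 4.4e-19), and the other 3 probe sets gave 4.84 to 5.87. The young adult mean of 3.59 was under the expression limit, so no fold change is given. From E15.5 on, the stage means were below the expression limit.

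Vcan (gene ID 13003, chr13:89655309-89743027) encodes the large proteoglycan of the jelly and is the neighbor of Hapln1, with 43476 bases and 0 other annotated genes lying wholly between them. Vcan arrays of E10.5 read 11.54, 11.51 and 11.58, and those of its highest stage, E11.5, read 11.72, 11.81 and 11.62. At E15.5 they read 9.60, 9.55 and 9.48, and at E19.5 8.77, 8.56 and 8.34. Young adult arrays read 6.47, 6.61 and 7.45, so Vcan was still expressed in adults and all embryonic arrays lay above them. The E10.5 level exceeded the young adult level by 4.70 (SE 0.291, adjusted p = 1e-14), or 26-fold. The other Vcan probe sets above the expression limit gave 4.39, 4.38 and 2.09. The last of these, with a highest stage mean of 6.36, did not pass the strict limits (limma adjusted p = 2.8e-05). Of the 8 Vcan probe sets, 4 were never above the expression limit. Their differences were 1.06, -0.32, -0.39 and -1.16, and the last had an r of -0.80 with the probe set read, at a highest stage mean of 3.55.

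Cd44 (gene ID 12505, chr2:102811141-102901669) encodes a cell surface receptor for hyaluronan and changed far less. The arrays read 7.49, 7.26 and 7.26 at E10.5, 7.33, 7.42 and 7.52 at E12.5, and 6.52, 6.26 and 5.93 at E19.5. Young adult arrays at 5.85, 5.75 and 6.06 were all below those of E10.5, by 1.45 in the means (SE 0.21, adjusted p = 6.7e-07). The second Cd44 probe set above the limit gave 0.71 with an adjusted p of 0.11. Within stages, Cd44 went down as the hybridization controls went up (r = -0.61 over 36 arrays), and with the controls as a covariate the difference was 0.34 (adjusted p = 0.55).

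Adamts1 (gene ID 11504, chr16:85793827-85803113) encodes a secreted protease that cuts versican. It was highest before birth at E12.5, with arrays at 7.49, 7.83 and 7.78, and lowest at E15.5, with arrays at 6.11, 5.79 and 5.74. Young adult arrays read 5.78, 6.82 and 6.85 and overlapped with those of E10.5 at 7.10, 7.58 and 6.73. The difference of 0.66 between these stages had an adjusted p of 0.10 and did not pass either limit.

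**Figure D2:**
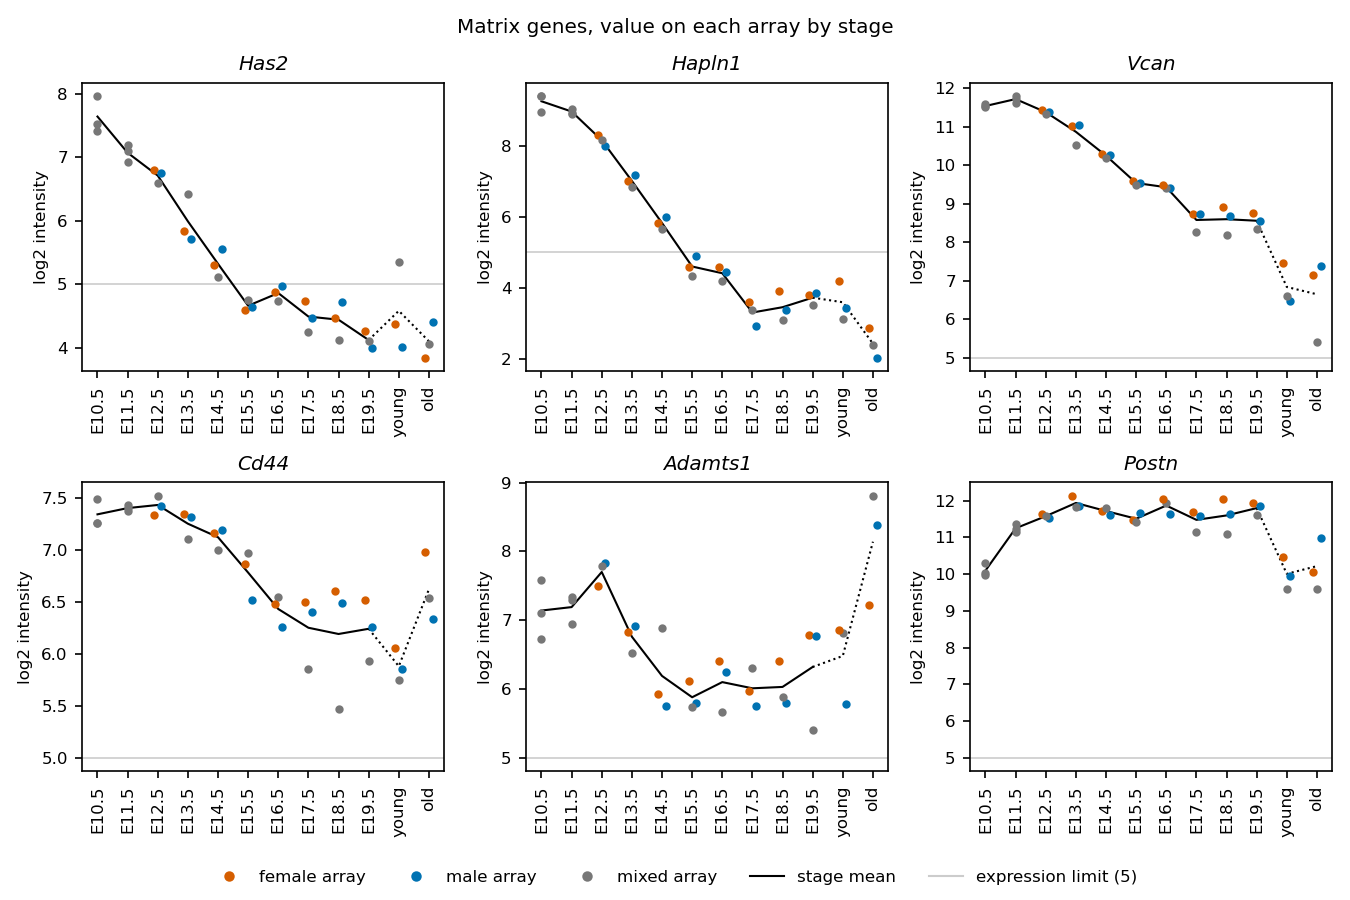
Log2 intensity (y axis, a separate scale in each panel) of the 6 matrix genes on each of the 36 arrays by stage (x axis). Dots are arrays coloured by sex label, the line joins stage means and is dotted after E19.5, and the grey line is the expression limit of 5. Has2 and Hapln1 cross the limit at E15.5, Vcan stays above it, Adamts1 has its lowest mean at E15.5 and its highest in old adults, and Postn rises from E10.5 to E11.5.

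Postn (gene ID 50706, chr3:54359267-54391041) encodes periostin, a matrix protein that binds collagen, and it rose while Has2 and Hapln1 fell. Postn arrays at E10.5 read 10.02, 9.98 and 10.30, and the E11.5 arrays, all above them, read 11.22, 11.37 and 11.14. This rise of 1.14 in 1 day (SE 0.241, adjusted p = 0.0094) was the sole rise of a member called at an adjusted p under 0.05 in any daily step, where 0.885% of all probe sets were called higher. The highest mean followed at E13.5, with arrays at 12.14, 11.86 and 11.82, and the level at E19.5 was 11.94, 11.85 and 11.62. Young adult arrays at 9.95, 9.59 and 10.48 lay below those of E19.5 by 1.79 (SE 0.241, adjusted p = 6.2e-07), or 3.47-fold, whereas E10.5 and young adult overlapped and differed by 0.09 (adjusted p = 0.74). The sign of that small difference depended on the scaling, as given in the closing section. The fibroblast marker list, averaged per array, was 6.07 to 6.29 on the arrays of E10.5, 8.54 to 8.86 on those of E19.5 and 8.76 to 9.46 on those of young adults, with 6 of 6 markers above the limit. This average hides markers that moved in different directions. Comparing the E19.5 mean with the E10.5 mean, Dpt (9.97, 2.31), Dcn (10.59, 7.13), Lum (6.79, 4.53) and Col1a1 (10.02, 6.86) were higher. Pdgfra (8.08, 9) and Tcf21 (6.73, 7.28) were lower. In young adults Dpt, Dcn and Lum were higher again, while Col1a1 (6.7), Pdgfra (8.01) and Tcf21 (5.91) were not. The part of this list in the Postn result was not tested.

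The transcription factors among the members belong to families with known short recognition sequences, so the RefSeq promoters (GRCm38.p6, 250 bases before to 50 after each annotated start) were searched on both strands. Promoters of 8 of the 10 genes were in the table, 9 promoters in all since Postn has a pair of starts, and those of Has2 and Sox9 were not. AACAAT, read by SOX factors, was in 10.7% of 32851 promoters, and in those of Postn and Twist1. TAATTG, read by MSX and other homeodomain factors, was in 8.0% of all promoters and in that of Postn. In Postn both lay together 165 bases before the first start, sharing 4 letters, and a further TAATTG lay 22 bases after that start. TATAAA, the core promoter box, was in 13.6% of all promoters, and lay 26 bases before the second start of Postn, 32 bases before that of Adamts1 and 126 bases before that of Twist1. CATATG, an E-box read by Twist1, was in 3.91% of all promoters and in 0 of the 9. These are matches of letters, shown in capitals within 30 bases of the gene's own strand, and no binding was measured.
Postn, SOX letters and, on the opposite strand, MSX letters, chr3:54359091-54359120, plus strand: gactttcttccAACAATTAacatacagcat
Twist1, SOX letters on the opposite strand, chr12:33957469-33957498, plus strand: ttcgcaggacgaATTGTTagaccccgagca
Postn, TATA box letters at the second start, chr3:54361069-54361098, plus strand: agcccagagctaTATAAActcagctctcca
Adamts1, TATA box letters, chr16:85803128-85803157, minus strand: ctcctatgtggcTATAAAggggcggccggg

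Twist1 (gene ID 22160, chr12:33957671-33959831), a helix-loop-helix factor of proliferating cushion mesenchyme, followed the jelly genes. The E10.5 arrays read 7.27, 6.99 and 7.57 and the E11.5 arrays, all above them, 7.62, 7.87 and 7.78. Later arrays read 6.17, 5.76 and 6.16 at E14.5, and 4.63, 4.29 and 4.02 at E19.5. Young adult arrays read 3.23, 4.10 and 4.37, so that from E16.5 on the stage means were below the expression limit and those from E17.5 on did not pass the test against young adult. At E10.5 the level was 3.38 above young adult (SE 0.225, adjusted p = 5.8e-14), against a young adult mean of 3.90 that was under the limit.

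Sox9 (gene ID 20682, chr11:112782210-112787757) encodes a factor of cartilage and of expanding valve precursors. Its highest mean was at E12.5, with arrays at 7.01, 6.85 and 6.94, against 6.60, 6.32 and 6.62 at E10.5 and 5.88, 5.59 and 5.79 at E19.5. The rise of 0.42 from E10.5 to E12.5 did not pass the test (limma adjusted p = 0.37). Young adult arrays at 5.23, 5.40 and 5.18 lay below all of E10.5, a difference of 1.24 (SE 0.21, adjusted p = 8.5e-06). The other Sox9 probe set above the limit gave 1.66, and moved by -0.02 from E10.5 to E12.5.

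Msx1 and Msx2, homeodomain factors of the atrioventricular cushions, were near or under the expression limit, and their values say little about level. Msx1 (gene ID 17701, chr5:37820491-37824585) read 4.68, 4.70 and 5.03 at E10.5 and 6.03, 5.75 and 5.37 in young adults, a difference of -0.92 (SE 0.183, adjusted p = 8.5e-05). It rose with the hybridization controls within stages (r = 0.67), the difference was 0.13 with the controls as a covariate, and its second probe set had an r of -0.05 with it and gave -0.29 (adjusted p = 0.20). Msx2 (gene ID 17702, chr13:53466881-53472780) read 4.65, 4.91 and 4.57 at E10.5 and 4.18, 4.11 and 3.44 in young adults, a difference of 0.80 (SE 0.164, adjusted p = 0.00011) with all arrays below the limit. After median centring it was 0.27 (adjusted p = 0.20), and the call was lost.

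**Figure D3:**
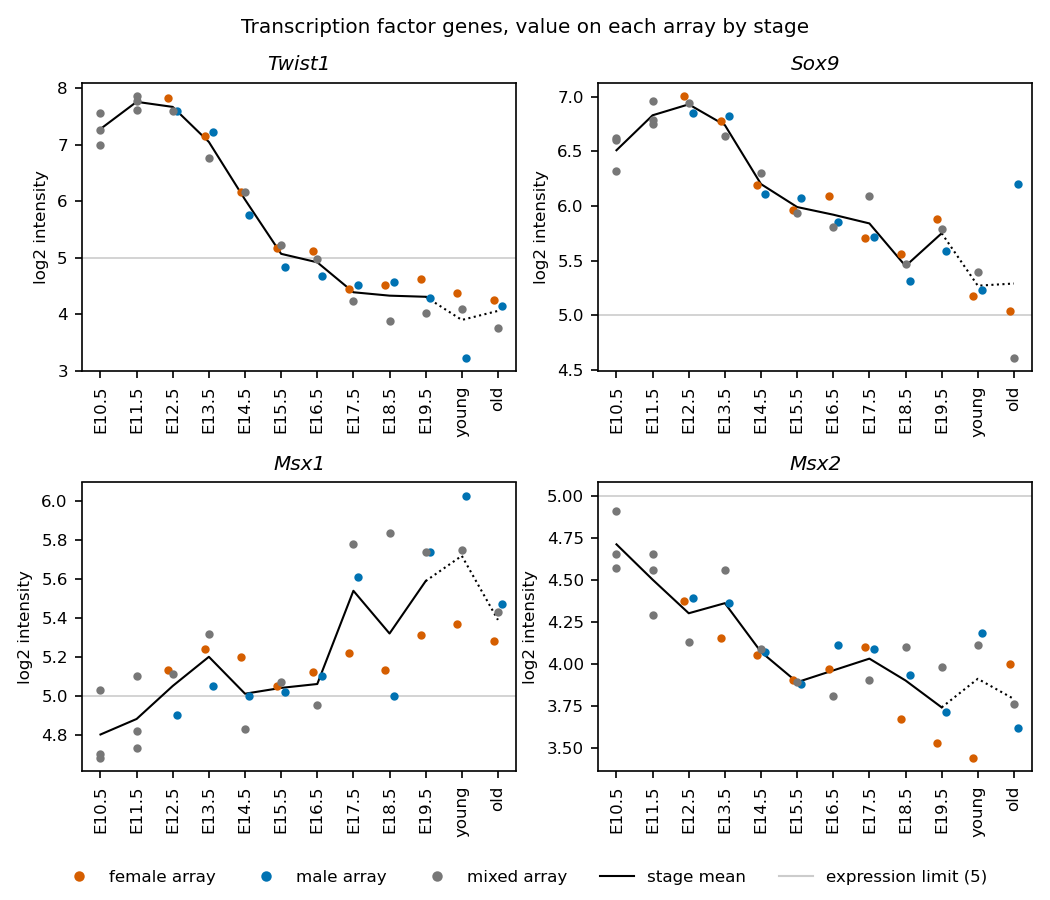
Log2 intensity (y axis, a separate scale in each panel) of the 4 transcription factor genes on each of the 36 arrays by stage (x axis), drawn as for the matrix genes. Twist1 falls from a mean of 7.76 at E11.5 to 4.31 at E19.5 and Sox9 from 6.93 at E12.5 to 5.75, while Msx1 lies around the limit of 5 and Msx2 below it throughout.

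To see when the genes changed, 3 windows were compared, chosen after the values were seen. The calls in them and the shares beside them describe the course of these genes and are no test of it. Between E10.5 and E12.5, Postn rose by 1.48 (adjusted p = 2e-04), where 1.74% of all probe sets were called higher, and Has2 fell by 0.92 (adjusted p = 0.015) and Hapln1 fell by 1.10 (adjusted p = 0.0038), where 1.89% were called lower. The Has2 call was lost after quantile normalization (-0.79) and without the first E10.5 array (-0.76) or the mixed E12.5 array (-0.86). Between E12.5 and E15.5, 7 of the 10 genes fell at an adjusted p under 0.05, where 11.8% of all probe sets did. Hapln1 fell by 3.57 (SE 0.232), Twist1 by 2.60 (SE 0.225) and Has2 by 2.05 (SE 0.229), all past the strict limits with 0.146% of probe sets called lower. Vcan fell by 1.84 (SE 0.291) and passed the strict limits through another pair of its probe sets, at -2.22 and -2.40. Adamts1 fell by 1.82 (SE 0.353), Sox9 by 0.94 (SE 0.21) and Cd44 by 0.64 (SE 0.21, adjusted p = 0.028). The Cd44 call was lost after quantile normalization (-0.44), median centring (-0.48), with the control covariate (-0.29), and without the male or the mixed E12.5 array or the male E15.5 array (-0.51 to -0.64). Postn in the same window moved by -0.07, with a 95% interval from -0.56 to 0.42. Between E15.5 and E19.5, Hapln1, Vcan and Twist1 fell by 0.88, 0.99 and 0.76, where 6.37% of all probe sets were called lower. These 3 calls came down to 0 without the mixed E19.5 array. They came down to 1 without any 1 of the E15.5 arrays or without the male E19.5 array. The other Vcan probe sets above the limit gave -0.59, -0.28 and 0.07, and none of these passed. Hapln1 was under the expression limit at both stages (4.6 and 3.72). Its other probe sets gave -0.65, -0.53 and 0.18, of which -0.65 alone passed (limma adjusted p = 0.042).

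Single days gave few calls. Of 90 pairs of gene and daily step on the probe sets read, 4 passed an adjusted p of 0.05. They were the rise of Postn and 3 successive falls of Hapln1. Hapln1 fell by 1.15 from E12.5 to E13.5 (SE 0.232, adjusted p = 0.013), by 1.19 to E14.5 (adjusted p = 0.028) and by 1.23 to E15.5 (adjusted p = 0.026). In these steps 0.745%, 0.0377% and 0.0266% of all probe sets were called lower. Without any 1 of the 3 E14.5 arrays the second and the third of these calls were lost. Other probe sets above the expression limit had falls called on further days. For Hapln1 these were -0.98 from E10.5 to E11.5 (limma adjusted p = 0.02) and -0.94 from E11.5 to E12.5 (adjusted p = 0.027). From E12.5 to E13.5, the second Has2 probe set gave -0.87 (adjusted p = 0.046) and another Sox9 probe set -1.34 (adjusted p = 0.0094).

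The day at which a gene was halfway on the log2 scale between its highest embryonic mean and its E19.5 mean, found by linear interpolation, was 13.7 for Has2, 13.9 for Hapln1, 14.2 for Sox9, 14.5 for Twist1, 14.7 for Vcan and 15.4 for Cd44. Leaving out each array in turn gave 13.4 to 13.8 for Has2, 14.6 to 14.7 for Vcan and 15.1 to 15.7 for Cd44. The E19.5 means of Has2, Hapln1 and Twist1 were under the expression limit and those of Vcan, Cd44 and Sox9 above it, so the days of these groups are not measured against like signals. With the mean of all probe sets of a gene, Vcan was halfway at 13.9 and Cd44 at 14.2, both before Twist1, which has 1 probe set. Has2, Hapln1 and Sox9 were also halfway earlier than on the probe sets read. The days and the order of the genes thus also depend on the probe sets read.

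The heart just before birth was the second reference. At E10.5, 4 of the 10 genes passed the strict limits, all higher, where 1.48% of all probe sets did. The differences were 5.55 for Hapln1, 3.52 for Has2, 2.99 for Vcan and 2.97 for Twist1. The other Vcan probe sets above the expression limit gave 3, 2.69 and 0.73, of which 0.73 did not pass (limma adjusted p = 0.12). Postn was lower at E10.5, with a difference of -1.70 (SE 0.241, adjusted p = 1.2e-06). The E19.5 and young adult comparisons share the E10.5 arrays.

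After birth, 2 members passed an adjusted p of 0.05 between E19.5 and young adult on the probe sets read. These were Postn and Vcan, and both fell, where 15.5% of all probe sets were called lower. The second Msx1 probe set rose by 0.81 (limma adjusted p = 0.0021), from a mean of 4.25 to 5.06. Vcan fell by 1.71 (SE 0.291, adjusted p = 2.6e-05) and Postn by 1.79, and the arrays of the stages did not overlap for either gene. Has2, Hapln1 and Twist1 did not pass the test, with 95% intervals of E19.5 minus young adult from -0.93 to 0 for Has2, -0.34 to 0.61 for Hapln1 and -0.05 to 0.87 for Twist1. Ordering each gene's 12 stage means by level, neighbors in that order differed at an adjusted p under 0.05 in 4 of 11 pairs for Hapln1 and in 1 of 11 for Vcan and for Postn. For the remaining 7 genes no neighboring pair passed. The order was taken from the same means that were compared, so these counts only describe the courses. The Hapln1 pair of E17.5 and old adult (3.3 and 2.42) was under the expression limit.

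**Figure D4:**
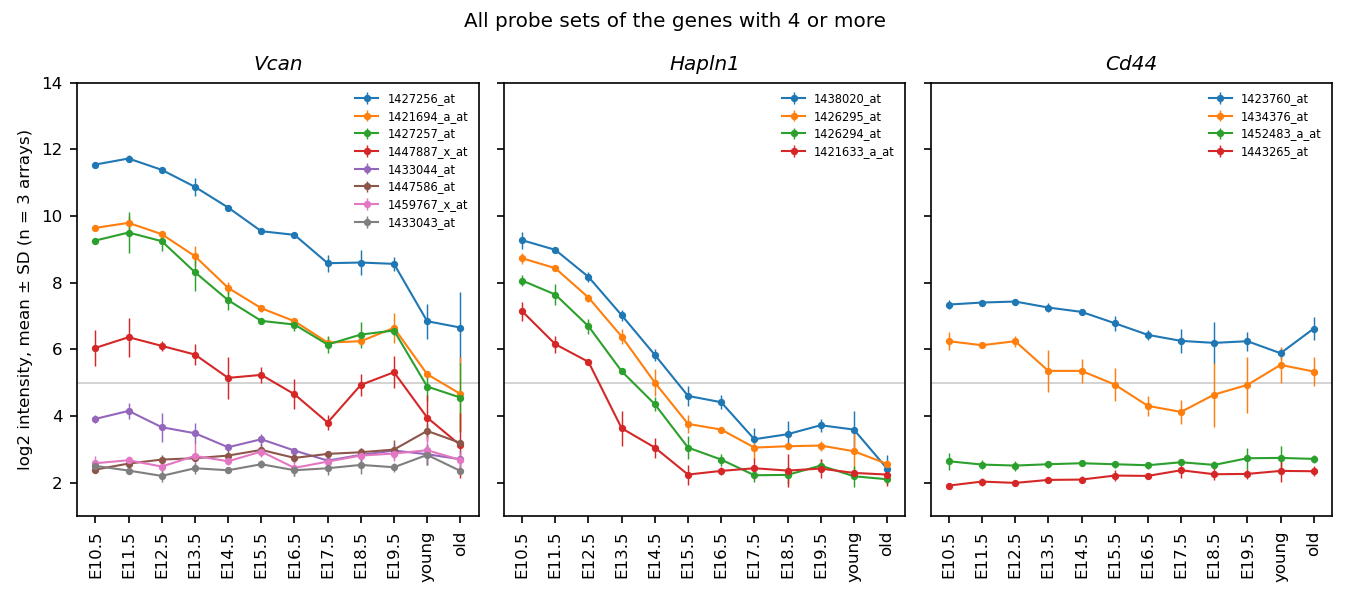
Stage means and SD (n = 3 arrays; y axis, log2 intensity) by stage (x axis) of every probe set of Vcan, Hapln1 and Cd44, the genes with 4 or more. The 4 Hapln1 probe sets fall together, 3 Vcan probe sets fall together, and 4 Vcan and 2 Cd44 probe sets stay below the limit of 5. A further Vcan probe set, with a highest stage mean of 6.36, falls less than these 3.

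In old adult hearts, Adamts1 and Cd44 were higher and Hapln1 was lower than in young adults at an adjusted p under 0.05, where 3.83% of all probe sets were called higher and 3.13% lower. No member passed the strict limits, which 0.00665% of all probe sets did. Adamts1 arrays read 8.39, 8.81 and 7.22 in old adults and 5.78, 6.82 and 6.85 in young adults, without overlap, a difference of 1.66 (SE 0.353, adjusted p = 0.004). Cd44 arrays read 6.33, 6.54 and 6.98 in old adults, all above the young adult arrays, a difference of 0.73 (SE 0.21, adjusted p = 0.031). The Cd44 difference lost its call without either the male or the mixed young adult array and without either the mixed or the female old adult array (0.55 to 0.77), and its second probe set gave -0.21. That call was also lost after quantile normalization (0.58), after median centring (0.59) and with the control covariate (0.34).

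Hapln1 arrays read 2.02, 2.39 and 2.86 in old adults and 3.44, 3.12 and 4.20 in young adults, all under the expression limit, and the other 3 probe sets gave -0.38, -0.09 and -0.06. The difference of -1.16 (adjusted p = 0.0023) is thus one between signals near background. When only the 6 adult arrays were fitted, none of these 3 calls remained (adjusted p = 0.14 for Adamts1, 0.18 for Cd44 and 0.16 for Hapln1). Markers of other cells differed as well. The leukocyte list was 4.49 to 5.01 in young and 5.22 to 6.04 in old adults, with 3 of 5 markers above the limit, and the endothelial list 6.76 to 6.99 and 7.57 to 7.82, with 7 of 7. The smooth muscle list was lower in old adults, at 7.03 to 7.43 against 7.78 to 8.31, with 5 of 5. Their part in the Adamts1 and Cd44 results was not tested.

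Arrays of the old adult group also spread widely for Vcan, at 7.38, 5.40 and 7.15 for the male, mixed and female array, and for Sox9, at 6.20, 4.61 and 5.04. The old minus young differences of both genes were within this spread. No member differed between male and female arrays at an adjusted p under 0.05 in limma over 9 pairs from E13.5 on, where 0.0488% of all probe sets did. At an unadjusted p under 0.05 there were 2 members, Cd44 at -0.21 with the male array higher in 1 of 9 pairs and Twist1 at -0.29 with the male array higher in 3 of 9, both with an adjusted p of 0.58.

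The genes around the members were counted in lists of related genes. Of 13 hyaluronan genes on the array, 3 were higher and 1 lower at E10.5 than in young adults by the strict limits, which 4.43% of all probe sets passed as higher and 2.1% as lower. These shares hold for the strict E10.5 counts of all 4 lists. At an adjusted p under 0.05, 3 of the 13 hyaluronan genes were higher and 7 were lower, beside 27.1% and 35.9% of all probe sets. Hmmr, a hyaluronan-binding protein that also works at the mitotic spindle, was higher by 2.85, Cemip2, a hyaluronan-degrading surface protein listed as Tmem2 in the file, by 2.47, and Ugdh, which makes the sugar nucleotide precursor, by 2.41. Lyve1, the hyaluronan receptor of lymphatic vessels and some macrophages, differed by -2.64. The other synthases differed by -0.97 for Has1 (4.21 against 5.19) and -0.81 for Has3, whose stage means never passed the expression limit, and neither value was tried under another scaling. The list median was -0.49, beside -0.19 over all probe sets.

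None of the 13 genes of the lectican and versican cleavage list was higher by the strict limits at E10.5 and 1 was lower. At an adjusted p under 0.05, 1 was higher and 7 were lower, beside 27.1% and 35.9% of all probe sets. Fbln1, a glycoprotein that binds versican and Adamts1, differed by -2.11 at E10.5 and by -3.29 at E19.5 from young adults. Hapln2, Hapln3 and Hapln4, the relatives of Hapln1, had no stage mean above the expression limit. Adamts9, another versican-cutting protease, differed by -0.09 (adjusted p = 0.78) and Adamts5 by -1.52 (adjusted p = 8.9e-06).

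Of the 21 transition factors, 4 were higher at E10.5 and 0 lower by the strict limits, with a list median of 0.06. At an adjusted p under 0.05 the counts were 7 higher and 4 lower, beside 27.1% and 35.9% of all probe sets. Gata5, an endocardial and myocardial factor, was higher by 3.55, the homeodomain factor Prrx2 by 2.77 and Id2, an inhibitor of helix-loop-helix factors, by 2.66. Twist2 differed by 0.13 (adjusted p = 0.63), Sox5 by 0.32 (adjusted p = 0.098) and Sox6 by 0.10 (adjusted p = 0.57). The means of Twist2 (4.84 and 4.70) and Sox5 (4.70 and 4.38) were under the expression limit at both stages, so that little could be seen of them.

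The 19 valve matrix genes went both ways at E10.5, with 5 higher and 6 lower by the strict limits and a median of -0.28. At an adjusted p under 0.05, 5 were higher and 9 were lower, beside 27.1% and 35.9% of all probe sets. Col2a1, the cartilage collagen, was higher by 4.16, tenascin C (Tnc) by 3.64 and the cadherin Cdh11 by 3.42. The small proteoglycans Lum and Dcn, which coat collagen fibrils, differed by -5.64 and -5.44, and Comp, a cartilage and tendon matrix protein, by -5.10. At E19.5 the strict calls were 3 higher and 3 lower. Col1a1 and Eln, which encode fibrillar collagen and elastin, were higher than in young adults by 3.33 and 3.28, and Tnc by 2.51, while Comp, Lum and Chad differed by -4.70, -3.39 and -2.21. Strict calls higher and lower were 0.818% and 0.634% of all probe sets in this comparison.

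**Figure D5:**
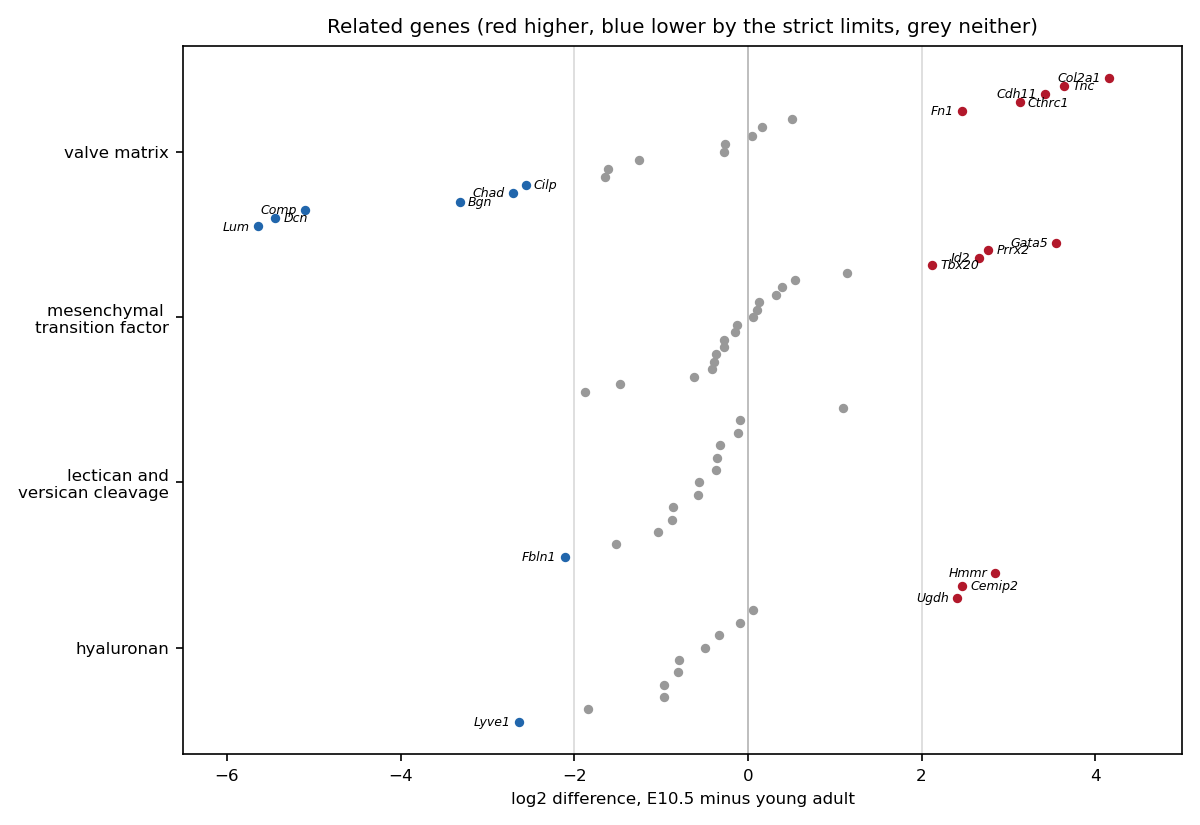
Log2 difference between E10.5 and young adult hearts (x axis) for the genes of 4 related lists (y axis, 1 band per list, genes sorted within a band). Red and blue points passed the strict limits, and grey lines mark 0 and a difference of 2 in either direction. The valve matrix band runs from -5.64 (Lum) to 4.16 (Col2a1), and the lectican band has 1 strict call (Fbln1).

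Profiles were also compared across the 36 arrays, which share stages and are no independent samples, so that r describes only the likeness of 2 courses. Has2, Hapln1, Vcan and Twist1 ran closely together, with r from 0.84 to 0.96 between any pair of them, while Postn had an r of -0.11 with Has2 and 0.02 with Hapln1. Over the 30 embryonic arrays Postn ran against both, with r of -0.60 and -0.51.

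Among all expressed probe sets, the closest to Hapln1 were Gata5 (r = 0.983) and the embryonic globin Hba-x (r = 0.974). The closest to Has2 were a Hapln1 probe set (r = 0.967) and the embryonic globin Hbb-bh1 (r = 0.958). The erythroid marker list was 9.12 to 9.82 on the E10.5 arrays and 3.75 to 3.96 on the E19.5 arrays, with 4 of 5 markers above the limit. The epicardium and mesothelium list ranged over the E10.5 arrays from 5.83 to 6.21, over the E19.5 arrays from 4.87 to 5.56 and over the young adult arrays from 4.14 to 4.89, with 5 of 5. The part of either list in the fall of the members was not tested. Vcan was closest to Flrt3 and Dennd2a (r = 0.976 for both) and Twist1 to 9430047L24Rik (r = 0.969) and Bmp2 (r = 0.968), the latter a myocardial signal that starts cushion formation. Sox9 was closest to Tgfb2 (r = 0.934), another cushion signal, and to a Vcan probe set (r = 0.928).

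Postn was closest to Lox (r = 0.948), which cross-links collagen, and Col1a2 (r = 0.936), a fibrillar collagen chain. Adamts1 was closest to Actg1 (r = 0.884) and Rab8b (r = 0.872), Cd44 to Tmem57 (r = 0.943) and Trim44 (r = 0.938), Msx1 to Tigd5 (r = 0.892) and Mr1 (r = 0.861), and Msx2 to Hmga2 (r = 0.869) and Smarca5 (r = 0.854).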

How the data were processed

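Heart RNA was hybridized to 36 one-colour arrays. The authors' deposited values are log2 intensities made with RMA, which subtracts background, equalizes the array distributions and summarizes each probe set; the submitters' processing notes also name Affymetrix Expression Console and Partek 6.6. They were used without further scaling. Gene names are those of the deposited annotation, and coordinates come from RefSeq (GRCm38.p6). A linear model holding a mean for each of the 12 stages was fitted to all 45101 probe sets of the 36 arrays (limma 3.58.1, R 4.3.3). Contrasts were each stage against young adult and E19.5, daily steps, and 3 windows chosen after the values were seen. P-values were adjusted by the Benjamini-Hochberg method within each contrast. Sexes were compared over 9 pairs, with stage as a block. The fit was tested on simulated data: of 200 probe sets changed by 3 (log2) between E10.5 and young adult, 194 (97%) were recovered with 0 false calls.

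The members and gene lists were chosen with earlier results of these data known. Named are all members, up to 3 strict calls in each direction per list for E10.5 and E19.5 against young adult, and the 2 nearest genes by Pearson's r per member; the list genes named without a strict call (Has1, Has3, the Hapln and Adamts relatives, Twist2, Sox5, Sox6) were added after their values were seen. Alternatives were another normalization, centring, the place of the filter, covariates, the samples fitted, the prior, the probe sets read and leaving out each array. The number of arrays limits the precision. At E10.5 and E11.5 the array numbers did not pair the samples (r of same-numbered deviations 0.22, -0.25 and 0.17). The microRNA arrays were not analysed here.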

Additional observations from a re-analysis of the deposited data

How the results depend on the processing

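The counts of members called kept within 1.5 times of those reported in most alternatives, with these exceptions. With the hybridization controls as a covariate, which rise with stage, 2 genes (Hapln1 and Vcan) in place of 4 passed the strict limits at E10.5 against young adult, and the differences were -0.87 for Postn, -0.42 for Adamts1 and 0.13 for Msx1. Postn also turned to -0.19 after another quantile normalization, to -0.43 after median centring, and to -0.01 and -0.11 without the third E10.5 array or the mixed young adult array, within a range of -0.11 to 0.33 over the arrays left out (0.09 as reported). The daily step calls numbered 2 in place of 4 after quantile normalization and 7 with sex as a term. Old against young adult gave 0 calls in place of 3 with the 6 adult arrays alone, and 1 (Adamts1) with the mean of each gene's probe sets. A log2 limit of 1 gave 1 strict call (Postn) between E19.5 and young adult, where there were 0.

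Leaving out each array in turn gave 2 to 5 daily step calls, 2 to 3 calls for old against young adult, and 4 to 4 and 4 to 5 strict calls at E10.5 against young adult and E19.5. It gave 0 to 2 strict calls for E19.5 against young adult, the 2 being Postn and Vcan without the female young adult array. For the windows it gave 2 to 3 calls for E10.5 to E12.5, 6 to 7 for E12.5 to E15.5, and 0 to 4 for E15.5 to E19.5. The cause was not tested.

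The replicate block on the 6 arrays of E10.5 and E11.5 left 1 member called (Postn, limma adjusted p = 0.047), as without the block, and took the probe sets called from 205 to 126. Not every array was closest to the one with its own number. Signals under the limit of 5 on the log2 scale, as for Msx2 and for Hapln1 and Has2 late in gestation, are close to background and limit what can be seen there.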
